A study of Homo sapiens with 6 samples.

Results

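The mitochondrial genome peaks described here are the peaks that HSP70 proteins gave on the mitochondrial chromosome in FLASH-seq, in which ultraviolet light fixes RNA to a protein, the protein is purified under its tag and the RNA it holds is sequenced. Every peak of the 4 deposited peak lists whose chromosome is the mitochondrial one was taken, which gave 348 of 9974 peaks. The cells were HEK293 Flp-In T-Rex, a human embryonic kidney cell line that carries an inducible transgene, switched on with tetracycline at 1 µg/ml in every library. The baits were HSPA1A, the stress-inducible HSP70, and HSPA8, its constitutive relative, each made from the transgene with a 3xFLAG-HBH tag and each with 2 biological replicates. After UV-C irradiation the tagged protein was captured on nickel and then streptavidin beads and the RNA was trimmed with RNase I. Libraries of tagged GFP, the control bait, were not analysed here, so the peak counts carry no control background, and RNA abundance and binding by the bait cannot be told apart.

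The human mitochondrial genome is a small circle transcribed from both strands into long precursors. The tRNAs lie between the other genes, and their excision releases the rRNAs and the mRNAs. The 12S and 16S rRNAs build the mitochondrial ribosome, the mRNAs encode subunits of the respiratory chain and of ATP synthase, and the control region holds the promoters. HSPA1A and HSPA8 are known mainly as chaperones of the cytosol and nucleus, and a different HSP70, HSPA9, resides in the matrix. The 37 genes comprise 2 rRNA, 13 protein-coding and 22 tRNA genes. RNA of the same sense as the reference is called plus here. On that strand lie 28 genes, and the minus strand holds MT-ND6 and 8 tRNA genes. Positions are 1-based on GRCh38, and no sequence of this chromosome was used here.

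For HSPA1A, replicate 1 held 129 mitochondrial peaks and replicate 2 held 40. For HSPA8, replicate 1 held 150 and replicate 2 held 29. Both lists numbered 1 were thus the long ones, and the lists of the different baits lay closer together than the replicates of a bait. As a share of all peaks this was 4.70% (95% Wilson interval 3.97 to 5.56), 1.94% (1.43 to 2.63), 4.79% (4.10 to 5.60) and 1.42% (0.992 to 2.03) in the same order. The mean share was 3.32% ± 1.95 (SD, n = 2) with HSPA1A as bait and 3.11% ± 2.38 (SD, n = 2) with HSPA8. These means lay 0.216 percentage points apart, less than the replicate SD (p = 1, two-sided exact permutation test). With 2 lists per bait this test cannot give a p below 0.33. The HSPA8 lists also hold peaks outside the 25 chromosomes that all 4 lists share, and the HSPA1A lists do not. Over those 25 chromosomes the shares were 4.70%, 1.94%, 5.40% and 2.04% in the same order. HSPA8 then lay above HSPA1A for each replicate number, and the HSPA1A minus HSPA8 difference of means was -0.397 percentage points. The depth of the libraries is unknown, and its part in the gap between the replicates was not tested. Mitochondrial peaks had a median width of 85, 74.5, 80 and 73 bp, against 47, 43, 56 and 51 bp for the peaks elsewhere in the same lists.

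Each peak was assigned to the gene on its own strand with which it shared most bases, or else to the gene on the other strand, which was then called antisense. Every peak outside the control region touched a gene. The rRNAs carried 20, 21, 15 and 23 peaks in the lists of HSPA1A replicate 1, HSPA1A replicate 2, HSPA8 replicate 1 and HSPA8 replicate 2, all of them on the sense strand. The number of rRNA peaks was therefore similar in the long and the short lists, but the peaks were wider in the long ones. Their median width was 117.5, 76, 165 and 75 bp in the same order, so the count does not measure the bases covered. Peaks on coding genes numbered 91, 12, 118 and 3, and peaks on tRNA genes 15, 6, 15 and 2. Peaks that touched no gene lay in the control region and numbered 3, 1, 2 and 1, all on the minus strand. By this rule a plus-strand peak of HSPA1A replicate 1 at 15953 to 16076, which reaches into the control region, was counted under MT-TT.

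**Figure D1:**
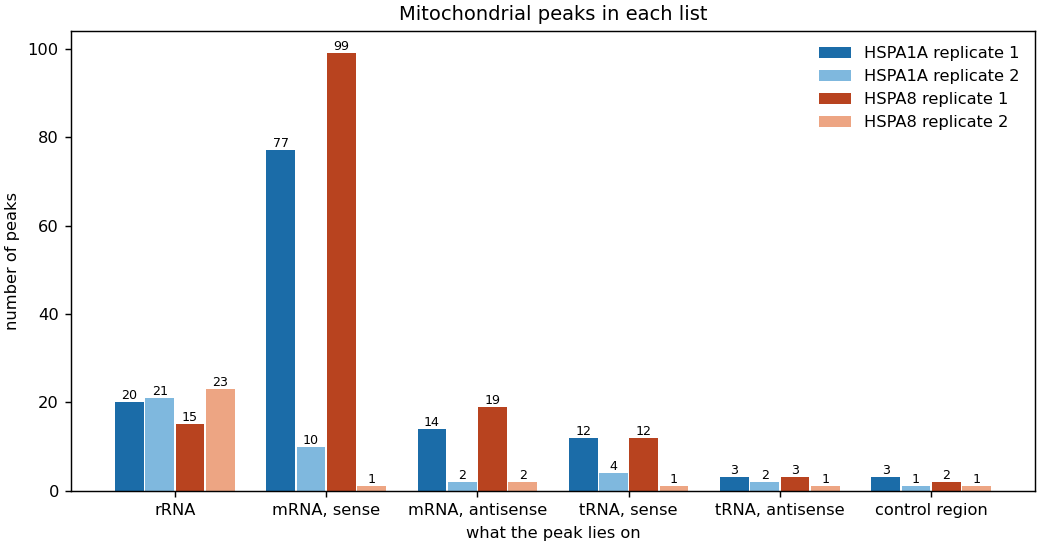
Number of mitochondrial peaks (vertical axis) by what they lie on (horizontal axis) in each of the 4 lists, with no error bars because each bar is 1 list. The rRNA bars lie between 15 and 23 in every list, while sense peaks on mRNAs number 77 and 99 in the lists numbered 1 and 10 and 1 in those numbered 2.

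Of the mitochondrial peaks of HSPA1A, 15.5% in replicate 1 and 52.5% in replicate 2 lay on rRNA, and of those of HSPA8, 10.0% and 79.3%. Coding genes made up 70.5% and 30% for HSPA1A against 78.7% and 10.3% for HSPA8. For neither class did the baits separate (p = 1 for each, two-sided exact permutation test). tRNA genes took 11.6% and 15.0% for HSPA1A and 10.0% and 6.90% for HSPA8, a mean of 13.3% ± 2.38 (SD, n = 2) against 8.45% ± 2.19 (SD, n = 2). Here both HSPA1A lists lay above both HSPA8 lists, by a mean of 4.87 percentage points (p = 0.33 in a two-sided exact permutation test, which is its minimum; p = 1 after Benjamini-Hochberg adjustment over the 5 shares tested). The share of HSPA8 replicate 2 rests on 2 peaks. Both lists numbered 1 held 15 peaks on tRNA genes, antisense ones included, so their shares differ only through their totals. The count of HSPA1A replicate 2 includes a peak across MT-TF and 12S rRNA, whose counterparts in the other lists were counted as rRNA.

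The authors gave each peak a whole-number score whose meaning is not stated, and it is used here to rank peaks within a list. In HSPA1A replicate 1 the rRNA peaks scored from 60 to 976 with a median of 274.5, and the coding-gene peaks from 5 to 45 with a median of 11. In HSPA8 replicate 1 the ranges were 161 to 989 and 4 to 55, with medians of 437 and 13.5. In these lists the lowest rRNA peak thus scored above the highest coding-gene peak. In HSPA1A replicate 2 rRNA peaks scored from 5 to 224 and coding-gene peaks from 5 to 10, and in HSPA8 replicate 2 from 6 to 110 and from 5 to 7, so the ranges overlapped there. The median rRNA peak had 11.4% and 39.7% of its list above it for HSPA1A and 11.8% and 63.4% for HSPA8. Mitochondrial rRNA therefore stood high in the ranking of the lists numbered 1, somewhat above the middle in HSPA1A replicate 2 and below it in HSPA8 replicate 2.

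**Figure D2:**
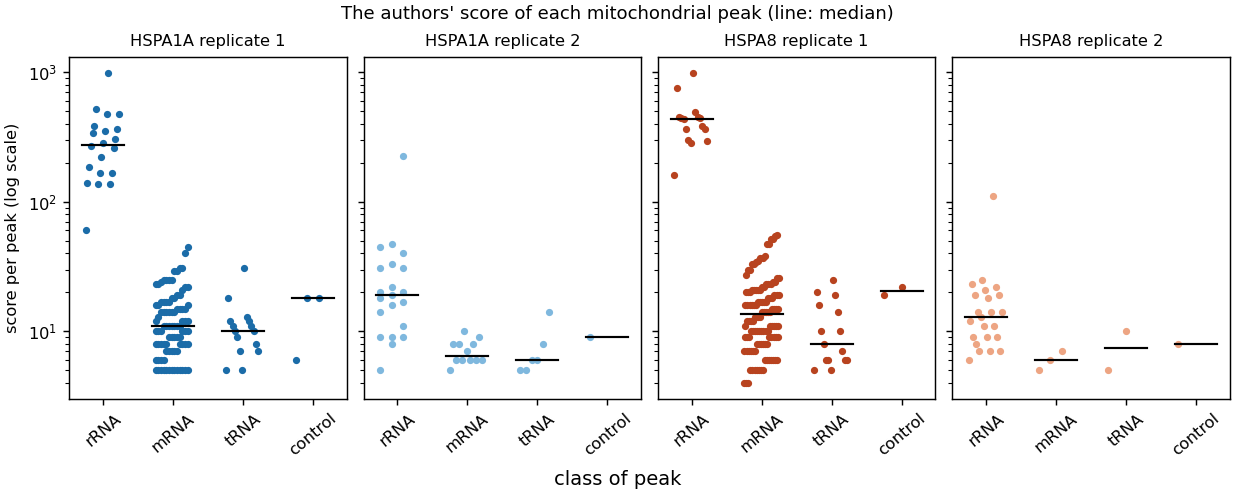
The authors' score of each mitochondrial peak (vertical axis, log scale) by class of peak (horizontal axis), in a panel per list, with a point per peak and a line at the median. The rRNA points of HSPA1A replicate 1 start at 60 and those of HSPA8 replicate 1 at 161, above the peaks of every other mitochondrial class in those lists.

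Peaks covered most of both rRNA genes, more fully in the lists numbered 1. MT-RNR1, the 12S rRNA of the small ribosomal subunit, lies at positions 648 to 1601, and its bases were covered to 94.1% and 89.7% for HSPA1A and 93.4% and 87.5% for HSPA8. MT-RNR2, the 16S rRNA of the large subunit, lies at 1671 to 3229 and was covered to 90.2% and 72.9% for HSPA1A and 93.8% and 64.1% for HSPA8. Coverage of both rRNAs was lower in the lists numbered 2 for each bait. Of the 2513 bases of both genes, 1488 (59.2%) lay under a peak in all 4 lists and 2471 in at least 1 list.

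The highest mitochondrial score of every list fell on the same stretch of 16S rRNA. The peak lay at 2166 to 2314 with a score of 976 in HSPA1A replicate 1, at 2229 to 2280 with 224 in HSPA1A replicate 2, at 2159 to 2346 with 989 in HSPA8 replicate 1 and at 2231 to 2283 with 110 in HSPA8 replicate 2. The bases covered in all 4 lists run from 2231 to 2280, which is nucleotides 561 to 610 of the rRNA. The next highest mitochondrial peak scored 514, 47, 753 and 25 in the same lists. The place of that next peak differed between lists: it lay at 1701 to 1800 and 1858 to 1920 of 16S rRNA for HSPA1A, at 1139 to 1403 of 12S rRNA for HSPA8 replicate 1 and at 2486 to 2559 of 16S rRNA for HSPA8 replicate 2. On the scale of the whole list, 5.58%, 6.41%, 8.97% and 16.3% of peaks scored above the leading one.

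On 12S rRNA the best peak was less fixed in place. It lay at 1071 to 1262 with a score of 474 in HSPA1A replicate 1 and at 1139 to 1403 with 753 in HSPA8 replicate 1. In the lists numbered 2 it lay at 1406 to 1522 with 40 for HSPA1A and at 1399 to 1518 with 23 for HSPA8. The leading 12S peaks of the lists with a shared number overlapped each other. Those of the HSPA1A replicates did not overlap, and those of the HSPA8 replicates met at 1399 to 1403.

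**Figure D3:**
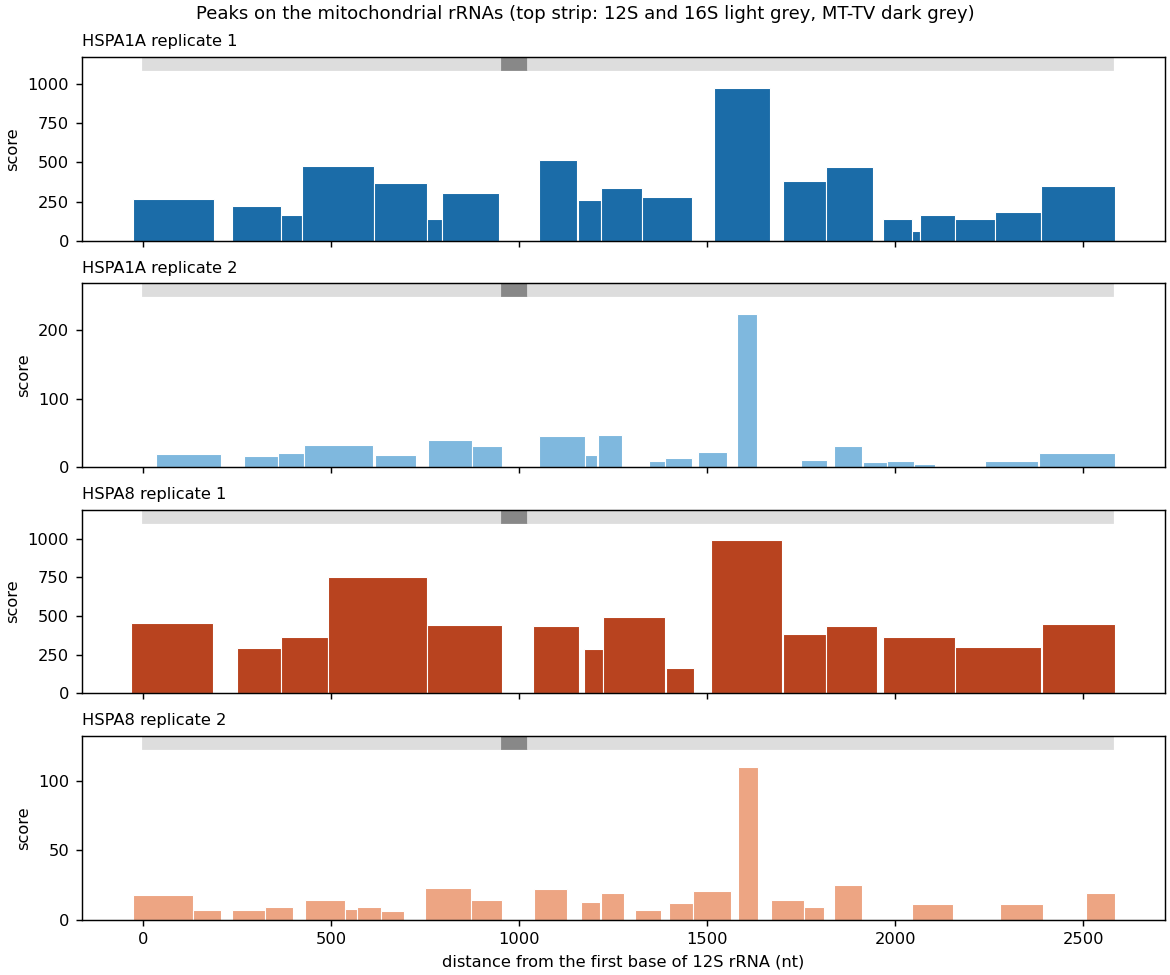
Score of each peak on the mitochondrial rRNAs (vertical axis, a different scale in each panel) against the distance from the first base of 12S rRNA in nucleotides (horizontal axis), each bar spanning a peak, in a panel per list; the HSPA1A replicate 2 peak counted under MT-TF is not drawn. The tallest bar of all 4 panels covers nucleotides 561 to 610 of 16S rRNA, with scores of 976, 224, 989 and 110.

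Several peak edges lay at the ends of the rRNA genes. The last peak of 16S rRNA ended at 3233, 3233, 3232 and 3233, which is 4, 4, 3 and 4 nt past the annotated end and just inside MT-TL1, the tRNA gene that follows. The last peak of 12S rRNA ended at 1593, 1602, 1601 and 1603 against an annotated end of 1601. These edges agreed to within 1 nt between lists for 16S and within 10 nt for 12S. At the 5′ end a peak began inside MT-TF, the phenylalanine tRNA gene, at 620, 611, 616 and 621, and ran on into 12S rRNA in all 4 lists. It was the sole junction between neighbouring genes of a strand that a peak crossed by at least 10 bp on each side in every list, and in HSPA1A replicate 2 that peak shared more bases with MT-TF and was counted there.

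Coding genes carried sense peaks mostly in the lists numbered 1. A sense peak was found on 12 and 6 of the 13 genes for HSPA1A and on 13 and 1 for HSPA8. Peaks covered 63.0% and 7.25% of coding bases for HSPA1A and 83.7% and 0.529% for HSPA8. In both lists numbered 1 together, 56.4% of coding bases were covered, and in all 4 lists 0.265%. Every coding gene with a sense peak in both lists of a bait, 6 for HSPA1A and 1 for HSPA8, also had a sense peak in at least 1 list of the other bait. For the 6 this had to be so, since HSPA8 replicate 1 had a sense peak on all 13 genes.

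MT-ATP8, which encodes a small subunit of ATP synthase and lies at 8366 to 8572, was the coding gene with a sense peak in all 4 lists. Peaks covered 76.3% and 48.3% of it for HSPA1A and 95.2% and 29.0% for HSPA8, with best scores of 25 and 8 and of 33 and 7. The bases shared by all lists run from 8464 to 8493. The gene overlaps MT-ATP6, another ATP synthase subunit, which lies at 8527 to 9207. MT-ATP6 was covered to 74.4% in HSPA1A replicate 1 and 94.1% in HSPA8 replicate 1, and no peak of the lists numbered 2 was on it. It held the best coding-gene peak of HSPA1A replicate 1, at 8910 to 9064 with a score of 45.

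Subunits of cytochrome c oxidase, the terminal enzyme of the respiratory chain, followed the same split. MT-CO1 was covered to 82.2% in HSPA1A replicate 1 and 93.9% in HSPA8 replicate 1, MT-CO2 to 80.8% and 90.5%, and MT-CO3 to 67.3% and 76.1%. In the lists numbered 2, MT-CO2 was covered to 11.8% for HSPA1A and the other 2 genes carried no peak. The best coding-gene peak of HSPA8 replicate 1 lay in MT-CO1, at 6474 to 6710 with a score of 55. MT-CYB, the cytochrome b of complex III, was covered to 46.0% in HSPA1A replicate 1 and 90.6% in HSPA8 replicate 1, and it carried no sense peak in the lists numbered 2.

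The 7 genes of complex I, which takes electrons from NADH, were covered to 57.6% and 10.1% for HSPA1A and 78.8% and 0% for HSPA8. MT-ND4 was the most covered of them in each list that covered any, at 85.9%, 26.3%, 95.4% and 0%. MT-ND2 was covered to 73.7%, 13.1%, 87.4% and 0%, and held the best coding-gene peak of HSPA1A replicate 2, at 5346 to 5482 with a score of 10. MT-ND1 was covered to 65.0% and 75.2% and MT-ND4L to 56.2% and 51.9% in the lists numbered 1, with no peak in those numbered 2. MT-ND5 was covered to 45.8%, 5.24%, 79.2% and 0%. MT-ND3 carried 3 sense peaks in HSPA8 replicate 1, which covered 85.3% of the gene, whereas HSPA1A replicate 1 had 2 antisense peaks on it, scoring up to 11, and no sense peak. For each coding gene except MT-ND4L, coverage was higher in HSPA8 replicate 1 than in HSPA1A replicate 1. That comparison rests on 1 list per bait and has no replicate check.

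**Figure D4:**
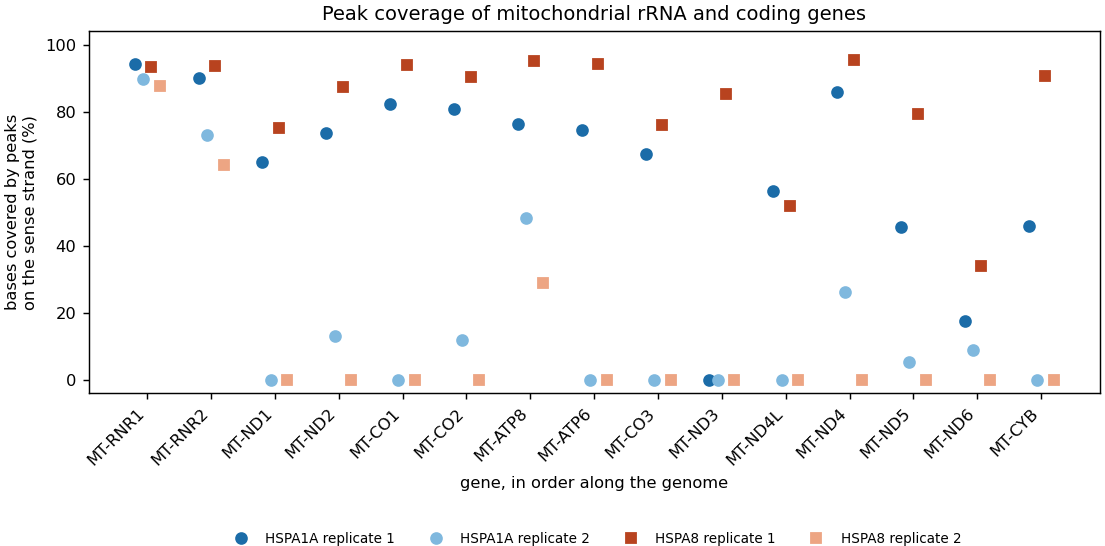
Percentage of each gene's bases covered by peaks on its sense strand (vertical axis) for the rRNA and coding genes in order along the genome (horizontal axis), with a point per list. Both rRNA genes are covered to at least 64.1% in every list, whereas most coding genes lie at 0% in HSPA8 replicate 2 and MT-ATP8 is above 0% in all 4 lists.

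MT-ND6, the complex I subunit encoded on the minus strand, was covered more on its antisense strand than on its own in 3 lists and on neither strand in HSPA8 replicate 2. Sense coverage was 17.5% and 8.95% for HSPA1A and 34.1% and 0% for HSPA8, and antisense coverage was 78.7% and 27.8% against 88.4% and 0%. The antisense RNA there has the plus orientation of MT-ND5 and MT-CYB, the genes on either side. The best antisense peak on MT-ND6 scored 25 in HSPA1A replicate 1, at 14331 to 14461, and 17 in HSPA8 replicate 1, at 14323 to 14428 and again at 14471 to 14592. In HSPA1A replicate 2 it scored 9, at 14627 to 14704. In each of these 3 lists the best antisense score on MT-ND6 was the highest antisense score of the mitochondrial peaks.

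Plus-strand peaks also ended near a shared point between MT-TE, the glutamate tRNA gene of the minus strand, and MT-CYB, whose first base is 14747. The edges lay at 14744 in HSPA1A replicate 2 and HSPA8 replicate 1. In HSPA8 replicate 2 the edge lay at 14740, still inside MT-TE, which spans 14674 to 14742. HSPA1A replicate 1 had instead a peak from 14633 to 14791 that ran across this point. Bases 14722 to 14740, antisense to MT-TE, were covered in all 4 lists.

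On the minus strand lay 24 and 5 peaks for HSPA1A and 24 and 4 for HSPA8, which is 18.6% and 12.5% against 16.0% and 13.8%. The mean was 15.6% ± 4.32 (SD, n = 2) with HSPA1A as bait and 14.9% ± 1.56 (SD, n = 2) with HSPA8, and these lay 0.656 percentage points apart, less than the replicate SD (p = 1, two-sided exact permutation test). Of the minus-strand peaks, 7, 3, 7 and 1 lay on tRNA genes of that strand, 2, 1, 2 and 0 on MT-ND6, and 3, 1, 2 and 1 in the control region. The other 12, 0, 13 and 2 were antisense to genes of the plus strand, with 5, 0, 8 and 2 of them on MT-ND5. Antisense peaks of both strands together made up 13.2% and 10.0% of mitochondrial peaks for HSPA1A and 14.7% and 10.3% for HSPA8.

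A stretch at the border of MT-ND5 and MT-ND6 recurred on the minus strand in 3 lists. The peaks lay at 14097 to 14175 and 14098 to 14192 in the HSPA1A lists, with scores of 8 and 6, and at 14101 to 14148 in HSPA8 replicate 2, with a score of 6. The last of these ends at the base before MT-ND6, which runs from 14149 to 14673, and was therefore counted as antisense to MT-ND5. HSPA8 replicate 1 had no peak there. Its nearest peak on that strand ended at 14087.

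The control region, between MT-TP and MT-TF, had minus-strand peaks between 212 and 397 in all 4 lists. HSPA1A replicate 1 had peaks at 212 to 244, 247 to 289 and 294 to 397 with scores of 6, 18 and 18. HSPA1A replicate 2 had a peak at 225 to 300 with a score of 9, HSPA8 replicate 1 at 227 to 312 and 323 to 397 with 19 and 22, and HSPA8 replicate 2 at 239 to 303 with 8. Bases 247 to 289 were covered in every list, and the outer edge at 397 was the same in both lists numbered 1. The promoter of minus-strand transcription lies in this region and drives both the minus-strand precursor and the primer for DNA replication.

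Of the 22 tRNA genes, 16 had a sense peak in at least 1 list, 3 of them in both HSPA1A lists and 1 in both HSPA8 lists. MT-TP, the proline tRNA gene at 15956 to 16023 on the minus strand, was the tRNA gene with a sense peak in all 4 lists. Its peaks lay at 15956 to 16013 and 15957 to 16009 in the HSPA1A lists, with scores of 18 and 8, and at 15955 to 16014 and 15957 to 16005 in the HSPA8 lists, with scores of 14 and 10. Both ends of this peak lay within 9 nt of each other across the lists. MT-TS1, a serine tRNA gene, and MT-TE had a sense peak in both HSPA1A lists and in HSPA8 replicate 1. MT-TE gave the highest tRNA score of both lists numbered 1, 31 for HSPA1A and 25 for HSPA8.

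The tRNA genes without a sense peak of their own were MT-TV, MT-TL1, MT-TW, MT-TC, MT-TR and MT-TL2. By strand, 7 of the 8 tRNA genes on the minus strand and 9 of the 14 on the plus strand had such a peak in at least 1 list, and the difference was not tested. The plus-strand count includes MT-TT, the threonine tRNA gene, by a single base of the HSPA1A replicate 1 peak at 15953 to 16076, with a score of 12, which runs across MT-TP on its antisense side and into the control region, which starts at 16024. It also includes MT-TF, through the junction peak described above.

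The 3′ edges of tRNA peaks on the minus strand lay close to the gene's end. Of the 18 sense peaks on minus-strand tRNA genes, 13 ended exactly 3 nt past the 3′ end of the gene, and the other 5 ended between 1 nt before and 1 nt after it. The 13 included every peak on MT-TQ, MT-TA, MT-TN, MT-TY and MT-TS1. MT-TS1, for example, has its 3′ end at 7446, and its peak edge lay at 7443 in both HSPA1A lists and in HSPA8 replicate 1. On MT-TE the edge lay 3 nt past the end in HSPA1A replicate 2 and HSPA8 replicate 1 and at the end in HSPA1A replicate 1. The 4 peaks on MT-TP, with edges from 1 nt before to 1 nt past the end, complete the 18.

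The 5′ edges of the same 18 peaks were spread from 2 nt before the start of the gene to 34 nt inside it, with a median of 19 nt inside. On the plus strand 8 of 11 sense tRNA peaks ended within 5 nt of the gene's 3′ end, between 4 nt before and 3 nt past it. MT-TS2, the other serine tRNA gene, was spanned whole in both lists numbered 1, at 12207 to 12268 and 12206 to 12268, again ending 3 nt past the gene, which runs from 12207 to 12265. Mature tRNAs carry a CCA tail that is added after the precursor is cut and is not in the genome. Its part in these edges was not tested.

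**Figure D5:**
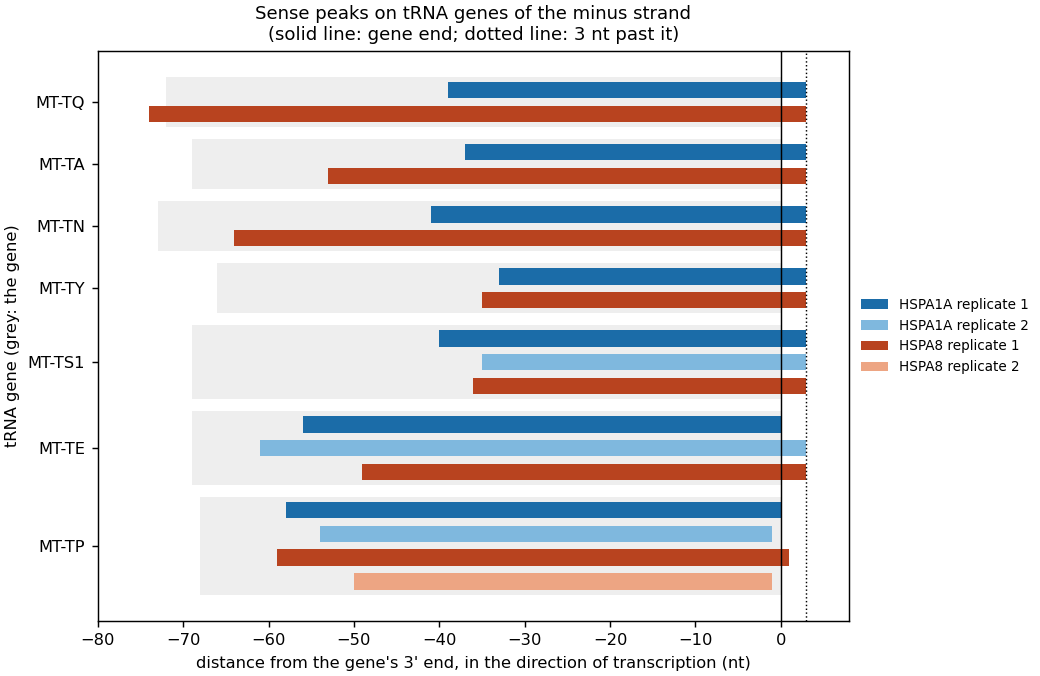
Sense peaks on the 7 minus-strand tRNA genes that had them (vertical axis), drawn as bars against the distance from the gene's 3′ end in nucleotides, in the direction of transcription (horizontal axis), with the gene in grey. The 3′ edge is 3 nt past the gene in 13 of the 18 peaks, while the 5′ edge varies from 2 nt before the gene to 34 nt inside it.

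Such edges were counted over all peaks outside the control region. In HSPA1A replicate 1, 7 of 21 minus-strand peaks ended within 5 nt of the 3′ end of a gene on that strand, and in HSPA8 replicate 1 it was 7 of 22. In HSPA1A replicate 2 it was 3 of 4 and in HSPA8 replicate 2 it was 1 of 3. On the plus strand it was 6 of 105, 2 of 35, 11 of 126 and 2 of 25. Positions within 5 nt of such an end make up 0.641% of the minus strand and 1.99% of the plus strand between MT-TF and MT-TP. The 18 minus-strand peaks that ended there were those on tRNA genes.

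Recurrence between replicates was measured by peaks that share at least 1 bp on the same strand. Of the 40 mitochondrial peaks in the second HSPA1A list, 39 (97.5%, interval 87.1 to 99.6, Wilson, 95%) met a peak of the first list, against 72.6% of all peaks of that list. Of the 29 in the second HSPA8 list, 28 (96.6%, interval 82.8 to 99.4) met a peak of the first, against 84.7% of all peaks. The exceptions were a peak on MT-ND5 at 13034 to 13074 with a score of 5 and the minus-strand peak at 14101 to 14148. Nearly every mitochondrial peak of the short lists thus shared at least 1 bp with a long list. The long lists covered 10365 plus-strand bases for HSPA1A and 12705 for HSPA8, with 91.7% and 93.6% of rRNA bases. A shared base was therefore likely for any plus-strand peak. This limits the comparison with the share of all peaks, here and between baits. In the other direction, 42 of 129 (32.6%) overlapped for HSPA1A and 21 of 150 (14.0%) for HSPA8, against 47.6% and 39.3% of all peaks.

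Between baits, 114 of the 129 peaks of HSPA1A replicate 1 (88.4%) overlapped a peak of HSPA8 replicate 1, against 58.3% of all peaks, and 119 of 150 (79.3%) did so the other way, against 50% of all peaks. Of the 40 peaks of HSPA1A replicate 2, 27 (67.5%) overlapped HSPA8 replicate 2, against 62.1% of all peaks, and 28 of 29 (96.6%) did so the other way, against 62.7%. Across both bait and number, 38 of the 40 peaks of HSPA1A replicate 2 (95%) overlapped HSPA8 replicate 1, against 65.5% of all peaks, and 29 of the 29 peaks of HSPA8 replicate 2 overlapped HSPA1A replicate 1, against 62.3%. All HSPA1A peaks lay on the 25 chromosomes that the lists share, but 2778 of 3131 and 1423 of 2040 HSPA8 peaks did. The other HSPA8 peaks could not meet an HSPA1A peak. This lowers the shares of all HSPA8 peaks given here (50%, 62.7% and 62.3%), which were not computed over the shared chromosomes alone. By strand, 102 of 105 plus-strand peaks of HSPA1A replicate 1 overlapped HSPA8 replicate 1, and 12 of 24 minus-strand peaks did. Requiring 50% of both peaks lowered the replicate overlap to 65.0% for HSPA1A and 37.9% for HSPA8. The share of all peaks was not computed by strand or under this stricter rule.

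When overlapping peaks of all lists were merged on each strand, 100 regions resulted, of which 8 held a peak of all 4 lists. On the plus strand these were 611 to 855 and 884 to 1603 over 12S rRNA, 1685 to 2806 and 2807 to 3233 over 16S rRNA, 8323 to 8714 over MT-ATP8 and 14627 to 15128 from MT-ND6 antisense into MT-CYB. On the minus strand they were 212 to 397 in the control region and 15955 to 16014 over MT-TP. In the region from 14627 to 15128, peaks of the lists numbered 2 ended at 14744 for HSPA1A and 14740 for HSPA8, before MT-CYB. The bases of that region covered in all 4 lists were 14722 to 14740. A further 38 regions held peaks of both lists numbered 1 and no other, 1 held both HSPA1A lists alone, and 0 held both HSPA8 lists alone. Merged regions elsewhere in the genome were not counted, so whether this split is particular to the mitochondrial genome is not known. Without HSPA8 replicate 2, the shortest list, 19 regions held a peak of every remaining list. Peaks that lie end to end without a shared base were kept apart, as at 2806 and 2807, so these counts depend on where peaks were cut. With peaks within 50 bp merged in each list first, 39 regions resulted, of which 7 held a peak of all 4 lists.

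Of the 16880 strand-specific bases under a mitochondrial peak of any list, 1672 (9.91%) lay under a peak of all 4, and 89.0% of these were on the rRNA genes. Without HSPA8 replicate 2 the rRNA share was 66.5%, and it was 22.9% for the bases shared by both lists numbered 1. Nuclear copies of mitochondrial sequence could take or give reads, since how reads with several matches were placed is not given in the sources used here. Among 487 nuclear pseudogenes and copies named for mitochondrial genes in the gene table, HSPA1A had 69 peaks in replicate 1 and 15 in replicate 2 and HSPA8 had 77 and 4, strand ignored. These counts were lower in replicate 2 for each bait, as the mitochondrial counts were. The whole lists were also shorter in replicate 2, with 2059 peaks against 2744 for HSPA1A and 2040 against 3131 for HSPA8. The part of the nuclear copies in the mitochondrial peaks was not tested.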

How the data were processed

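FLASH-seq peak lists of tagged HSPA1A and HSPA8 were used, with 1 list per replicate. Per the labels' protocols, PCR copies of a fragment were collapsed by a random adapter tag, and another tag told replicates apart. The submitters' processing notes name Trim Galore 0.4.4, FastQC, STAR 2.6.0b, deepTools and the build GRCh38. The peak caller and its threshold are not given in the sources used here. The score per peak is the authors', as deposited, in an unstated unit. No depth is recorded, and Wilson intervals cover counting error over peaks that are not independent.

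Gene positions came from the RefSeq table for GRCh38.p14, in which 37 of 37 mitochondrial genes were matched. It gives no strand, so strands were taken from general knowledge. Genes with a peak in all 4 lists, leading peaks per class and regions of all 4 lists were named; other names, the edge distances and the border stretch were chosen after their values were seen. The members, lists and tests were chosen with earlier results of these data known. Replicates are separate samples per the labels, and baits were compared by exact permutation over 6 label orders with Benjamini-Hochberg adjustment over 5 shares. Python 3.11.15, scipy 1.17.1 and matplotlib 3.10.9 were used, and the procedures were tested on simulated peaks. Alternatives were a stricter score, equal numbers of peaks, merging within 50 bp, base pairs, the 25 shared chromosomes, other assignment and overlap rules, each replicate left out and a replicate block.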

Additional observations from a re-analysis of the deposited data

How the results depend on the processing

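Of 70 recomputed values, 50 held, 13 changed sign and 7 shifted beyond the spread or by over 1.5 times. The cause was not tested. A difference in shares was counted as held when it kept its sign, whatever its size, since no test on so few lists can give a small p. The difference in the share of tRNA peaks kept its sign under all 11 alternatives run. The baits no longer separated with peaks merged within 50 bp (2.22 percentage points, exact permutation, p = 0.667). With a replicate left out the difference ranged from 3.18 to 6.55, and it was smallest without either replicate 2 (3.18 and 3.31). The HSPA1A minus HSPA8 difference in the mitochondrial share of peaks turned to -0.123 with equal numbers of peaks and to -0.397 when counted over the 25 shared chromosomes; without single replicates it lay between -1.47 and 1.90. The difference in rRNA share turned to 1.72 and that in coding-gene share to -6.89 with the peaks above the list median score, where HSPA8 replicate 2 keeps 3 mitochondrial peaks; leaving out a replicate gave -45.3 to 24.0 and -28.4 to 39.9. The minus-strand difference turned to -12.5 with peaks merged within 50 bp and without single replicates lay between -2.40 and 3.71. Replicate overlap rose to 100% for both baits with the higher-scoring peaks, which left 16 peaks for HSPA1A and 3 for HSPA8. It was also 100% for HSPA8 on either strand, and fell to 65.0% and 37.9% with a reciprocal overlap of 50%. The share of all peaks was not computed under these settings. Regions of all lists fell to 3 with the higher-scoring peaks and ranged from 9 to 19 with a list left out, which was added after seeing the data. The lists share a replicate number only. With the replicate block the mitochondrial share differed by 0.216 and the tRNA share by 4.87 percentage points (exact sign-flip permutation, p = 1 and p = 0.5, of which 0.5 is the smallest possible). The block leaves each mean difference unchanged by construction, and its values count among those held. It could not have changed a call. Unknown depth limits every count of peaks.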
